A study of Mus musculus with 6 samples.

Results

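The 10 genes described here encode enzymes and helper proteins that modify, crosslink and process collagen: P4ha1, P4ha2, P4ha3, Plod1, Plod2, Lox, Loxl1, Loxl3, Serpinh1 and Pcolce. They were taken by gene symbol from the platform annotation, and each was read by exactly 1 probe set, so 10 of the 19938 genes tested are members. Total RNA came from dermal cells of neonatal C57BL/6 mouse skin after 2 days of culture. The 3 arrays labelled DMSO, after the solvent, are cells cultured without the compounds, and the 3 arrays labelled FR are cells given 20 µM forskolin plus 20 µM RepSox. Forskolin raises cyclic AMP by switching on adenylyl cyclase, while RepSox inhibits the kinase of the TGF-β type I receptor. Neither compound was given alone on these arrays, so the share of each in a change cannot be told apart. The labels do not say whether the arrays of a group stand for separate cultures, animals or litters, so p-values here refer to the spread between arrays, part or all of which may be technical.

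Collagen chains are modified inside the endoplasmic reticulum before they leave the cell. Prolyl 4-hydroxylases, each built from an alpha subunit (P4ha genes) and protein disulfide isomerase, hydroxylate proline so that the triple helix holds at body temperature. Lysyl hydroxylases (Plod genes) hydroxylate lysine, which sets the kind of crosslink that can form later, and the chaperone encoded by Serpinh1 binds the folded helix. Outside the cell the propeptides are cut off, a step that the enhancer protein encoded by Pcolce speeds up at the C-terminal end. Copper-dependent lysyl oxidases (Lox and Loxl genes) then oxidise lysine and hydroxylysine so that collagen and elastin fibres crosslink. In fibroblasts TGF-β is a known inducer of collagen synthesis and of several of these enzymes, and hypoxia is a known inducer of P4ha1, P4ha2, Plod2 and Lox.

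With FR, 9 of the 10 genes were lower and 0 were higher, against a background of 14.5% of all genes lower and 13.4% higher. The shares of all genes, here and below, include genes with dim signal. A filter at 5.77, the 95th percentile of the olfactory receptor genes over all 6 arrays, left 11999 genes. Of these, 3202 were lower and 2139 higher, so 44.5% were called, against 27.9% of all genes. Lists with few dim genes are better set against these filtered counts than against the shares of all genes. The call is an adjusted p under 0.05 in limma with Benjamini-Hochberg adjustment over all genes, and values are log2 RMA values, where a change of 1 is 2-fold. The falls ranged from -2.32 for P4ha3 to -0.32 for Serpinh1, and 3 of them, P4ha3, Lox and Loxl3, were at least 2-fold, which 1.5% of all genes were. The median change of the members was -0.66, against 0.05 for all genes tested. The members were chosen with earlier results of these data known, so these counts and medians describe them and are not a test. In all 10 genes the values of the FR arrays did not overlap those of the DMSO arrays, against 43.9% of all genes. Loxl1 did not pass the test, and its FR arrays lay above its DMSO arrays.

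**Figure D1:**
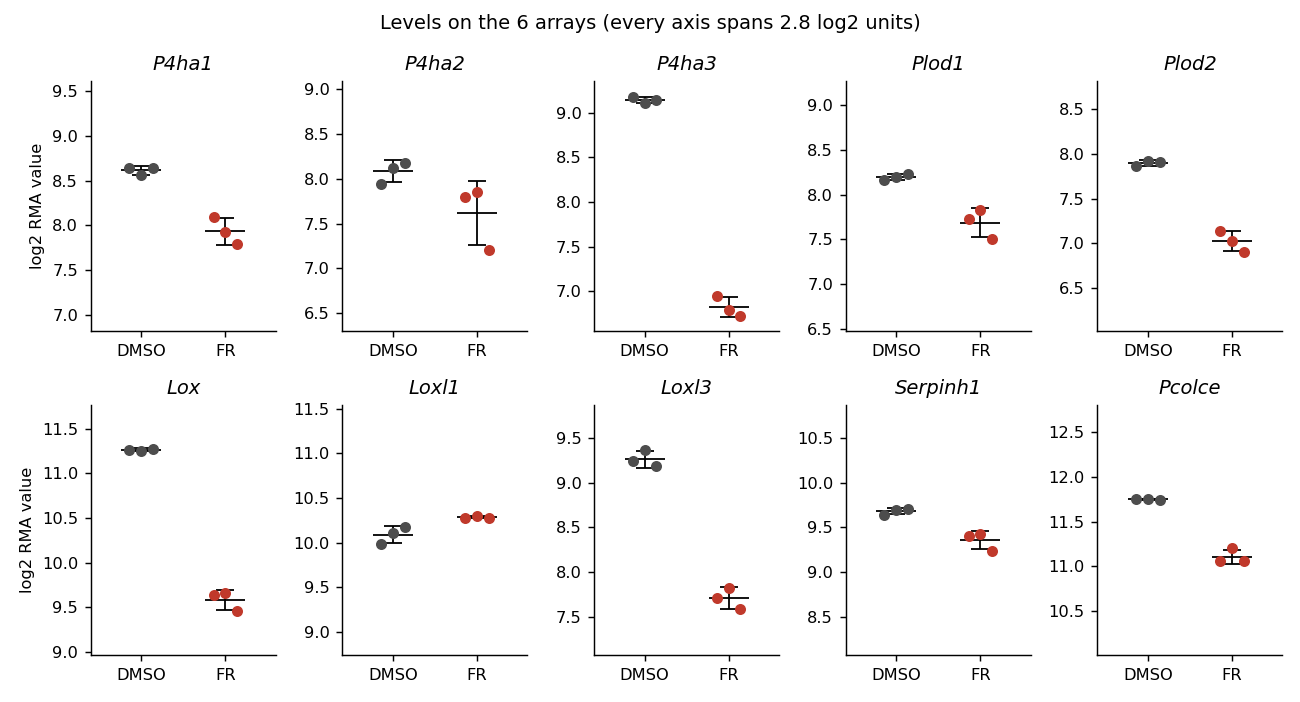
Log2 RMA value (vertical axis) of each gene on the 3 DMSO arrays (grey points) and 3 FR arrays (red points), with the mean and SD of each group as a bar with whiskers. The FR points lie below the DMSO points in 9 panels and above them for Loxl1, and P4ha2 has the widest spread within FR.

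The arrays were alike within each group, with r over all genes from 0.9956 to 0.9961 among DMSO arrays and from 0.9926 to 0.9938 among FR arrays, against 0.9717 to 0.9776 between groups. Genes are not independent replicates. Every member lay above a dim level of 5.65 in both groups, which is the 95th percentile of the olfactory receptor genes on the DMSO arrays. Over all 6 arrays this percentile was 5.77. The olfactory receptor genes themselves had a median log2 change of 0.14, against 0.05 for all genes, so small rises near the dim level are uncertain. Markers of fibroblasts, the main collagen-making cells of dermis, had a mean log2 level of 10.70 to 10.75 on the DMSO arrays and 10.67 to 10.73 on the FR arrays, with 5 of 10 lower, 4 higher and none under the dim level. The fibroblast receptor gene Pdgfra, the 1 marker of the 10 not called, had a log2 change of -0.03 (95% interval -0.21 to 0.14). The changes of the 10 markers ran from -1.57 for Col1a2 to 2.17 for Lum, so the similar means hide changes in both directions. Among markers of other cell types, most of those of fat cells, keratinocytes and skeletal muscle were higher with the treatment. Fat cell markers were higher in 7 of 7 cases, with a mean log2 level of 7.15 to 7.22 in DMSO and 9.06 to 9.24 in FR, and Adipoq and Cd36 lay under the dim level in DMSO. Keratinocyte markers were higher in 8 of 10 cases, going from a mean of 6.04 to 6.09 in DMSO to 6.98 to 7.15 in FR. Krt1 and Epcam lay under the dim level in both groups, and Krt15, called higher, lay under it in DMSO. Skeletal muscle markers were higher in 8 of 10 cases, from 5.80 to 5.91 in DMSO to 6.73 to 6.84 in FR, with Des under the dim level in both. Myog, Ttn and Chrna1 lay under it in DMSO only, and of these Myog and Ttn were called higher. Of 8 endothelial markers 3 were higher and 1 lower, and 4 lay under the dim level in both groups. Of the higher ones, Emcn and Tek were among those 4 and Erg lay under the dim level in DMSO, and the lower one, Flt1, lay under it in FR. Of 7 melanocyte markers 2 were higher, of which Tyrp1 was under the dim level in DMSO, and 1 was lower. The lower one, Mitf, had a log2 change of -1.19 on the probe set used and -0.06 on its other probe set. Of 8 leukocyte markers 1 was higher, and 6 lay under the dim level in both groups. The part of cell makeup in the results below was not tested, and fewer cells of a type cannot be told apart from less RNA per cell.

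Among the prolyl 4-hydroxylase alpha subunits, P4ha3 fell most of all 10 members. Its log2 values were 9.18, 9.11 and 9.14 on the DMSO arrays and 6.94, 6.80 and 6.73 on the FR arrays. The groups lay far apart compared with their spread, at 9.14 ± 0.03 in DMSO and 6.82 ± 0.11 in FR (mean ± SD, n = 3 arrays per group), a 4.998-fold fall (log2 change -2.32, SE 0.09, adjusted p = 5.1e-08). P4ha1, the alpha subunit gene that most tissues use, had log2 values of 8.64, 8.56 and 8.64 in DMSO and 8.09, 7.92 and 7.79 in FR. Every FR array was lower than every DMSO array, and the fall was 1.61-fold (log2 change -0.68, SE 0.10, adjusted p = 0.000326).

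P4ha2, the third alpha subunit gene, had log2 values of 7.95, 8.12 and 8.18 in DMSO and 7.79, 7.85 and 7.21 in FR. The first 2 FR arrays lay close under the lowest DMSO array, and FR replicate 3 lay well below them. The change was -0.47 (SE 0.15, adjusted p = 0.044). Without FR replicate 3 it was -0.26 and no longer passed (adjusted p = 0.0919), and the call was also lost without DMSO replicate 2 (0.103) or DMSO replicate 3 (0.123). The call on P4ha2 therefore rests on single arrays, while those on P4ha1 and P4ha3 held in each of the 14 alternatives tried. P4hb, which encodes the protein disulfide isomerase that pairs with each alpha subunit, missed the threshold (log2 change -0.25, adjusted p = 0.0512). It passed as lower in 5 of the 14 alternatives, among them without FR replicate 3 (adjusted p = 0.0466).

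The promoters of the 3 alpha subunit genes are shown as a description, and a link between their sequence and the falls was not tested. Each line gives the 250 bases before the RefSeq gene start, 5′ to 3′ on the gene's strand, build GRCm38.p6. Capitals mark the GC box GGGCGG and the hypoxia response element cores ACGTG and GCGTG, searched on both strands.
P4ha1, chr10:59323046-59323295, plus strand: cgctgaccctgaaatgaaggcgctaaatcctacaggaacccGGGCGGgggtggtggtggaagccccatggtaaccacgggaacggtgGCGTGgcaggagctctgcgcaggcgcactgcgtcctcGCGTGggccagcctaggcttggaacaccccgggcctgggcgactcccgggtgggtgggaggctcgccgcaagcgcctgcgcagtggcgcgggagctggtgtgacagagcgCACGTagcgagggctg
P4ha2, chr11:54100674-54100923, plus strand: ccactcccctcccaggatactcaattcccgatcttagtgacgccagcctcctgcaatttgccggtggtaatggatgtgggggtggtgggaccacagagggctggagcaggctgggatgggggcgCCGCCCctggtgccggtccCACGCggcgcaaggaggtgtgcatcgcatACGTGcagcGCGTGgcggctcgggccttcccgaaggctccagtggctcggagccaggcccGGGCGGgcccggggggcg
P4ha3, chr7:100285270-100285519, plus strand: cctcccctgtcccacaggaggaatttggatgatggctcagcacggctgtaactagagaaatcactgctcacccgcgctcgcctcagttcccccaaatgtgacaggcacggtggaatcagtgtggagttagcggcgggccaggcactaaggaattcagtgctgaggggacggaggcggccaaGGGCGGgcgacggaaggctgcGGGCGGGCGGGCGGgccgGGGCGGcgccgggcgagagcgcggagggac

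The P4ha3 window held 5 GC boxes, 3 of which overlap in 1 run, and 0 hypoxia cores. The P4ha1 window held 1 GC box, 1 ACGTG and 2 GCGTG, and the P4ha2 window held 2 GC boxes, 1 ACGTG and 2 GCGTG. Of the 32851 windows of this length in the RefSeq table, 32.7% held GGGCGG, 16.6% ACGTG and 28.2% GCGTG. The table matched 6 of the 10 members, P4ha1, P4ha2, P4ha3, Plod1, Serpinh1 and Pcolce. All 6 windows held a GC box, 3 held ACGTG and 4 held GCGTG. None of the 6 held the cyclic AMP response element TGACGTCA, which 1.55% of all windows held, the SMAD palindrome GTCTAGAC (0.167%) or the CCAAT box (33.8%). The 6 windows were GC-rich, from 58.8% for Pcolce to 70% for P4ha2. The GC content of all windows was not computed, so the shares are not adjusted for it. These matches describe letters in a window and do not show binding.

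Both lysyl hydroxylase members fell. Plod2, which encodes the enzyme that hydroxylates the telopeptide lysines of fibrillar collagen, had log2 values of 7.86, 7.92 and 7.91 in DMSO and 7.14, 7.03 and 6.91 in FR. The FR arrays were all lower, by 1.83-fold on average (log2 change -0.87, SE 0.09, adjusted p = 3.23e-05). Plod1, whose enzyme acts on lysines within the helix, had log2 values of 8.17, 8.20 and 8.24 in DMSO and 7.73, 7.82 and 7.51 in FR. It was 1.43-fold lower (log2 change -0.51, SE 0.10, adjusted p = 0.00246). The remaining gene of the family, Plod3, whose product also glycosylates hydroxylysine, had a log2 change of 0.02 (95% interval -0.16 to 0.20, adjusted p = 0.881).

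Serpinh1, which encodes the procollagen chaperone HSP47, had the smallest fall that passed. Its log2 values were 9.64, 9.70 and 9.71 in DMSO and 9.41, 9.43 and 9.24 in FR, so the groups were separate but close. The fall was 1.25-fold (log2 change -0.32, SE 0.09, adjusted p = 0.0173). The test was missed without DMSO replicate 2 (adjusted p = 0.0596), DMSO replicate 3 (0.0619) or FR replicate 3 (0.0504), while the change stayed between -0.38 and -0.23 over all alternatives.

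Pcolce, the gene of the procollagen C-proteinase enhancer, had log2 values of 11.75, 11.76 and 11.74 in DMSO and 11.06, 11.20 and 11.06 in FR. The DMSO arrays differed by little (SD 0.01), and the fall was 1.56-fold (log2 change -0.64, SE 0.08, adjusted p = 0.000174). Its relative Pcolce2, which encodes a second enhancer, also fell (log2 change -0.56, adjusted p = 0.00561).

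Of the lysyl oxidase genes, Lox and Loxl3 fell and Loxl1 did not pass the test. Lox, which encodes the founding member of the family, had log2 values of 11.27, 11.24 and 11.28 in DMSO and 9.64, 9.66 and 9.46 in FR. The DMSO arrays were almost equal, and all FR arrays lay far below them, a 3.20-fold fall (log2 change -1.68, SE 0.09, adjusted p = 2.59e-07). Loxl3, a relative with scavenger receptor domains, had log2 values of 9.24, 9.36 and 9.18 in DMSO and 7.71, 7.83 and 7.58 in FR. It fell 2.94-fold (log2 change -1.56, SE 0.09, adjusted p = 8.01e-07).

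Loxl1, whose product is needed for elastic fibre upkeep in mice, had log2 values of 9.99, 10.11 and 10.17 in DMSO and 10.28, 10.30 and 10.28 in FR. All FR arrays were above all DMSO arrays, but the change of 0.20 missed the threshold (SE 0.08, 95% interval 0.01 to 0.38, adjusted p = 0.104). It passed as a rise with quantile normalization (log2 change 0.26, adjusted p = 0.0363), cyclic loess (0.28, adjusted p = 0.0257) and a variance trend with robust moderation (0.20, adjusted p = 0.0212). Loxl4, another family gene, had a log2 change of -0.19 (95% interval -0.41 to 0.02, adjusted p = 0.169) and -0.16 on its other probe set. Loxl2 is not analysed here.

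**Figure D2:**
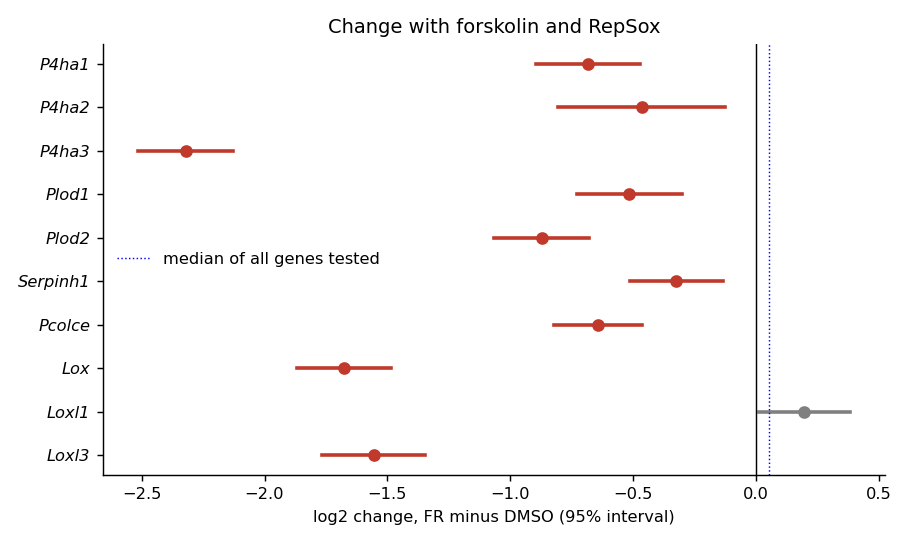
Log2 change, FR minus DMSO (horizontal axis), of each gene as a point with its 95% interval from limma, red where the adjusted p is under 0.05 and grey otherwise. The intervals of P4ha3, Lox and Loxl3 lie wholly below -1, that of Loxl1 lies just above 0, and the dotted line marks the median of all genes, 0.05.

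How unequally genes of 1 family changed was read from the log2 difference between both genes within each array. Of 12 pairs compared, 10 had FR values that did not overlap the DMSO values, as 43.9% of all single genes did not. The share among other gene pairs was not computed, and the 12 pairs share genes, so they are not independent. The change of P4ha1 exceeded that of P4ha3 by 1.64, and that of P4ha2 exceeded it by 1.86. Lox and Loxl1 differed in change by -1.87 and Loxl1 and Loxl3 by 1.75. Plod2 and Plod3 differed by -0.89, and Plod1 and Plod2 by 0.36. Each of these pairs had p = 0.1 in the exact permutation test (two-sided, adjusted p = 0.12 over the 12 pairs), the smallest that 3 arrays against 3 allow, so no pair could pass. The pairs that overlapped were Lox with Loxl3 (difference -0.12, p = 0.2) and P4ha1 with P4ha2 (-0.22, p = 0.3), both by the exact permutation test.

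**Figure D3:**
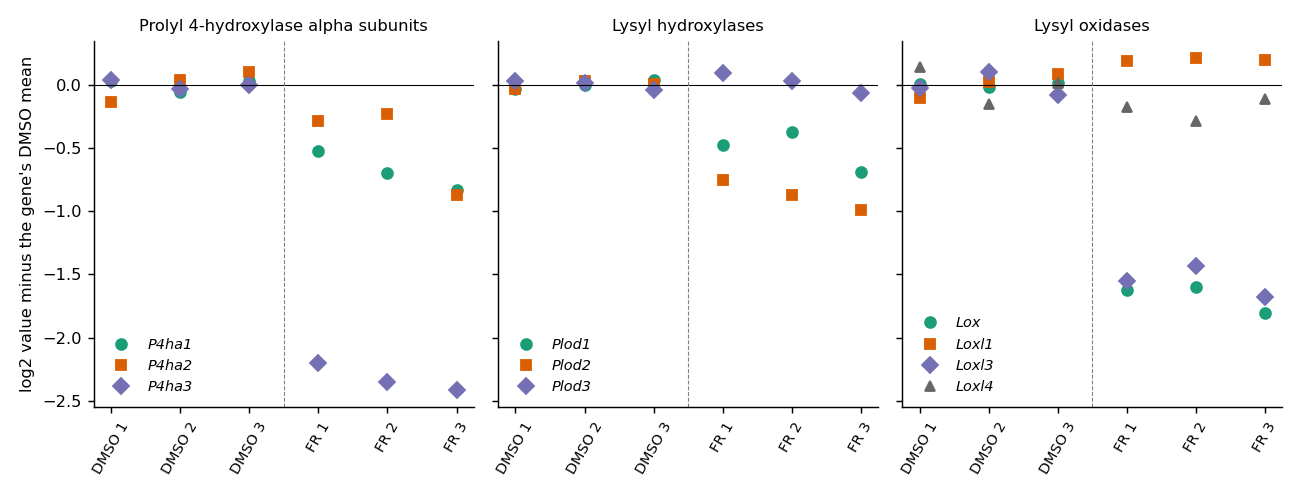
Log2 value of each gene minus its own DMSO mean (vertical axis) on the 6 arrays (horizontal axis), for the prolyl 4-hydroxylase alpha subunits, the lysyl hydroxylases and the lysyl oxidases. P4ha3 lies far below P4ha1 and P4ha2 on each FR array, Plod3 stays near 0, and Lox and Loxl3 lie together well below Loxl1 and Loxl4.

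FR replicate 3 was the lowest of the FR arrays in 8 of the 10 members, which 40.3% of all genes and 56.1% of the genes called lower also showed. The SD within FR had a median of 0.11 over the members, against 0.04 within DMSO. Over all genes these medians were 0.12 and 0.09. Without FR replicate 3 the log2 change was -2.27 for P4ha3 and -1.61 for Lox.

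Other genes of the pathway went both ways. Of 16 further genes for modification and folding in the endoplasmic reticulum, 4 fell (25%) and 2 rose (12.5%), against 14.5% and 13.4% of all genes, and the median log2 change was 0.03. With median centring 6 were lower and 1 higher. Creb3l1, a transcription factor gene whose product drives collagen genes in bone, fell 3.01-fold (log2 change -1.59, adjusted p = 1.92e-07). The prolyl isomerase gene Fkbp14 fell by 0.94 on the log2 scale, and the retrieval receptor gene Kdelr3 by 0.89. P3h4, which encodes a partner of a prolyl 3-hydroxylase, fell by 0.35. P3h2, a prolyl 3-hydroxylase gene, went the other way and was at least 2.55-fold higher, from log2 values of 5.68, 5.51 and 5.59 in DMSO, around the dim level, to 7.12, 7.04 and 6.86 in FR (adjusted p = 1.76e-06). Crtap, the gene of a partner of prolyl 3-hydroxylase, rose by 0.28. The Crtap call was lost in 7 of the 14 alternatives, among them without DMSO replicate 1 (adjusted p = 0.141), DMSO replicate 2 (0.108), FR replicate 1 (0.0789) or FR replicate 3 (0.0737). The P3h4 call was lost in 4, among them without DMSO replicate 2 (adjusted p = 0.0702), DMSO replicate 3 (0.0511) or FR replicate 3 (0.0534). The log2 change was -0.10 for P3h1, 0.07 for the cyclophilin gene Ppib and 0.04 for the galactosyltransferase gene Colgalt1, and none of the 3 passed.

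Of 12 genes for the export of procollagen, 4 fell (33.3%, against 14.5% of all genes) and 0 rose (against 13.4%), with a median log2 change of -0.16. Only 1 of the 12, Mia2, lay under the dim level, and of the 11999 genes left by the dim filter 3202 were lower. The 4 were the COPII vesicle coat genes Sec24d (log2 change -0.81, adjusted p = 3.45e-05), Sec23a (-0.67, adjusted p = 0.000207) and Sec31a (-0.41, adjusted p = 0.00278) and the GTPase gene Sar1a (-0.49, adjusted p = 0.00141). Mia3, which encodes the receptor that loads procollagen into vesicles, had a log2 change of -0.22 (adjusted p = 0.146, and 0.0489 without FR replicate 1). The paralogues Sec23b and Sar1b had log2 changes of -0.13 and 0.05 and did not pass.

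Of 12 further genes for extracellular processing, crosslinking and uptake, 4 fell and 4 rose (33.3% each, against 14.5% and 13.4% of all genes), with a median log2 change of -0.03. The proteinases that remove propeptides differed in direction. Bmp1, which encodes the main C-proteinase, rose from log2 values of 9.05, 9.11 and 9.09 in DMSO to 9.59, 9.56 and 9.50 in FR (1.38-fold, adjusted p = 0.00131). Its relative Tll1 was at least 2.28-fold lower, from 6.69, 6.94 and 6.88 in DMSO to 5.22, 5.53 and 5.43 in FR, under the dim level (adjusted p = 3.07e-06). Tll2 was higher by 0.49 with both groups under the dim level. The N-proteinase gene Adamts3 was higher by 0.50 on its brightest probe set, and its 15 other probe sets had log2 changes of 0.02 to 0.87, of which 2 passed. The collagen uptake receptor gene Mrc2 fell by 0.86 (adjusted p = 0.000133).

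Among 6 genes of copper and ascorbate supply, not all of which serve the enzymes described here, 1 fell and 1 rose (16.7% each, against 14.5% and 13.4% of all genes). Their median log2 change was -0.06. Ccs, a copper chaperone gene, fell by 0.31, a call lost in 8 of the 14 alternatives, among them without DMSO replicate 2 (adjusted p = 0.141), DMSO replicate 3 (0.105), FR replicate 2 (0.112) or FR replicate 3 (0.112). The ascorbate transporter gene Slc23a2 rose by 0.36 (adjusted p = 0.0132, and 0.0661 without DMSO replicate 1). Atp7a, which encodes the pump that loads copper into secreted enzymes, had a log2 change of -0.19 (adjusted p = 0.124).

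Of the 12 substrate genes, fibrillar collagen chains and elastin, 4 fell and 4 rose (33.3% each, against 14.5% and 13.4% of all genes), with a median log2 change of -0.11. None lay under the dim level, and of the 11999 genes left by the dim filter 3202 were lower and 2139 higher. With median centring 6 were lower and 2 higher. The type I chain genes fell, Col1a2 by 1.57 and Col1a1 by 1.09, as did Col11a1 by 1.17 and Col5a2 by 0.55. Col3a1, the type III chain gene, rose from log2 values of 10.01, 9.95 and 10.04 in DMSO to 10.69, 10.64 and 10.64 in FR (1.58-fold, adjusted p = 0.000118). The elastin gene Eln, a substrate of lysyl oxidases, rose by 0.36 (adjusted p = 0.0104). The number that rose was 2 without DMSO replicate 2, DMSO replicate 3 or FR replicate 2, since the rises of Col5a3 and Col27a1 were then lost.

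**Figure D4:**
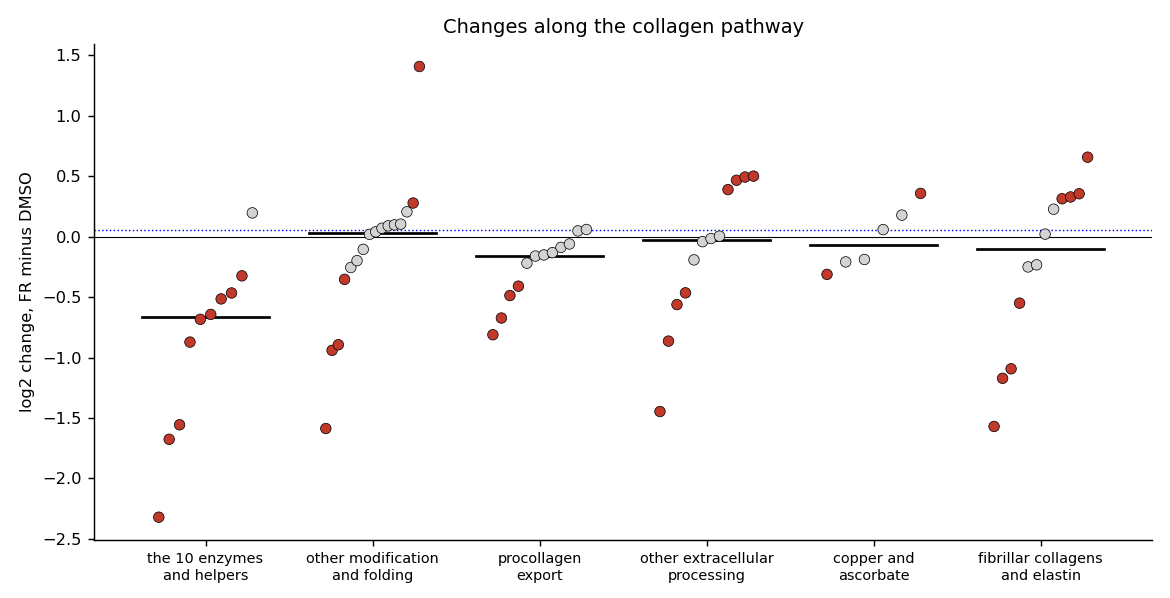
Log2 change, FR minus DMSO (vertical axis), of every measured gene in the 10 members and 5 further lists of the collagen pathway, red where the adjusted p is under 0.05, with the median of each list as a bar and that of all genes as a dotted line. The member bar lies at -0.66, and the other 5 bars lie between -0.16 and 0.03. Members and lists were chosen with earlier results of these data known, so their contrast is not a test.

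The genes whose 6 values, each taken relative to the gene's DMSO mean, were closest to those of P4ha3 were Cd109, Adamts6 and Ifit3b, with a root mean square difference of 0.0840, 0.114 and 0.142 on the log2 scale. Cd109 encodes a membrane protein that binds TGF-β, Adamts6 a secreted metalloprotease and Ifit3b an interferon-induced protein. Adamts6 and Ifit3b lay under the dim level of 5.65 in FR, and Ifit3b, with a DMSO mean of 5.67, was close to that level in DMSO too. For Lox the closest were Dock5, Epb41l2 and Gpr176, with differences of 0.0434, 0.0667 and 0.0673. This likeness is over 6 arrays in 2 groups.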

How the data were processed

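Total RNA was labelled as biotinylated cRNA and hybridised to 6 one-colour Affymetrix arrays, per the labels' protocols. The deposited table holds log2 values for 35556 probe sets, made by the authors with RMA in the oligo package, per the submitters' processing notes. Versions and settings are not given in the sources used here. Their range was checked to fit a log2 scale, and they were used as deposited. Slide and scan batches and array background were not analysed here.

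Of the probe sets, 21789 had exactly 1 gene symbol in the platform annotation. For genes with several, the probe set with the highest mean over all 6 arrays was used, which left 19938 genes. Arrays were grouped by their titles. FR was compared with DMSO in R 4.3.3 with lmFit and eBayes of limma 3.58.1 (two-sided, no filter), with Benjamini-Hochberg adjustment over all genes and a threshold of 0.05. Precision is limited by the number of arrays, and the median SE of a log2 change was 0.0962. Where 1 group lay under the dim level of 5.65, folds are given as at least the value against that level. The fit was tested on simulated data in which 200 of the 19938 genes were changed. It recovered 53% of log2 changes of 0.5 and 89% of those of 1, with 4 false calls among 146. A gene that missed the threshold may therefore still have changed. Far more genes were called in the real data, so these shares need not hold there. Family pairs were compared by an exact permutation test in SciPy 1.17.1. Same-numbered arrays of both groups did not deviate together.

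All 10 members are named. Of the other lists, at most 6 genes past the threshold with the largest change are named. Further genes outside that rule were chosen after their values were seen. For the 2 members that changed most, the 3 genes closest in pattern are named, leaving out predicted genes. The members and lists were chosen with earlier results of these data known. Of the genes on these lists, Fkbp10, Kdelr2, Adamts2, Loxl2 and Cfd are not analysed here. Alternatives were quantile normalization, median centring, cyclic loess, leaving out dim genes, averaging probe sets, testing every probe set, robust moderation with a variance trend, a block on the replicate number, and dropping 1 array at a time.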

Additional observations from a re-analysis of the deposited data

How the results depend on the processing

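Over 14 alternatives, 0 of the 140 values of the members reversed, and 127 kept their direction and side of the threshold. The calls on P4ha1, P4ha3, Plod1, Plod2, Lox, Loxl3 and Pcolce held in all 14, with P4ha3 between -2.38 and -2.22 and Lox between -1.73 and -1.60. The fall of P4ha2 missed the threshold with quantile normalization (-0.37, adjusted p = 0.0835), cyclic loess (-0.37, 0.082) and every probe set tested (-0.47, 0.139). Loxl1 passed as a rise with quantile normalization (0.26), cyclic loess (0.28) and a variance trend with robust moderation (0.20), so 1 member was then called higher instead of 0. Leaving out single arrays moved P4ha2 between -0.58 and -0.26, Serpinh1 between -0.36 and -0.26 and Loxl1 between 0.15 and 0.24, and left 7 to 9 members lower and 0 higher. The number of genes called lower over the whole array went from 2888 to between 2230 and 2939 without single arrays, and that called higher from 2671 to between 1803 and 2975. Median centring gave 1880 higher and 3447 lower, a split that leans further to lower calls than the main one. A filter on dim genes gave 2139 higher and 3202 lower of 11999 genes.

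With the replicate number as a block, P4ha2 missed the threshold (-0.47, adjusted p = 0.0585), Crtap, Ccs and Col27a1 lost theirs, so that 1 instead of 2 of the further modification genes was higher, and no call on another member changed. The block gave 2311 genes higher and 2666 lower. The labels do not say that a number marks a shared culture. Deviations of same-numbered arrays from their group means correlated at -0.07, 0.05 and -0.03 over genes, and not every array correlated best with its own number.

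Of the 16 further modification genes, 6 were lower and 1 higher with median centring, 6 and 2 with dim genes left out or a variance trend, 3 and 1 with every probe set tested, and 3 to 4 lower and 1 to 2 higher without single arrays. Of the 12 substrates, 6 were lower and 2 higher with median centring, 6 and 5 with dim genes left out, 4 and 2 with every probe set tested, and 4 to 5 lower and 2 to 4 higher without single arrays. For 56 other genes, those called in the pathway lists and others the text gives a change for, 782 values were computed, of which 709 kept their direction and side of the threshold, 55 lost a call and 7 gained one. Tll2 and Egln3 had no value with dim genes left out. The 11 changes of sign were all in genes near 0 that did not pass. With median centring the log2 change was -0.037 for Plod3, -0.016 for Colgalt1, -0.0083 for Sar1b and -0.044 for Ldha. Pdgfra was 0.052 with quantile normalization and 0.037 with cyclic loess. Without single arrays Plod3 lay between -0.018 and 0.062, Colgalt1 between -0.021 and 0.071 and Ldha between -0.063 and 0.072. The cause of these shifts was not tested. Dim signal limits P3h2, Tll1, Tll2 and Egln3.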

Other observations

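Known targets of hypoxia-inducible factors, a class that includes P4ha1, P4ha2, Plod2 and Lox, went both ways. Of 19 others measured, 6 fell (31.6%) and 3 rose (15.8%), against 14.5% and 13.4% of all genes, with a median log2 change of 0.01. Only 1 of the 19, Car9, lay under the dim level in both groups. Of the 11999 genes left by the dim filter 3202 were lower and 2139 higher. The peptide hormone gene Adm fell by 0.96 (adjusted p = 5.75e-05), the glycolytic enzyme gene Aldoa by 0.43, the mitophagy receptor gene Bnip3 by 0.38, the kinase gene Pdk1 and the glucose transporter gene Slc2a1 by 0.34 each and the oxidase gene Ero1a by 0.31. The stress-response gene Ndrg1 rose by 1.04 (adjusted p = 3.04e-05) and the angiogenic ligand gene Vegfa by 0.89 (adjusted p = 1.53e-05). The prolyl hydroxylase gene Egln3, whose DMSO mean lay under the dim level, was at least 1.22-fold higher. Some of these calls were lost without single arrays. Egln3 lost its call in 9 of 13 alternatives, among them without DMSO replicate 1 (adjusted p = 0.16), DMSO replicate 3 (0.0519), FR replicate 1 (0.0623), FR replicate 2 (0.156) or FR replicate 3 (0.0639). Ero1a lost it without DMSO replicate 1 (0.073), DMSO replicate 2 (0.084), DMSO replicate 3 (0.0783) or FR replicate 3 (0.0778). Slc2a1 lost it without DMSO replicate 1 (0.0568) or DMSO replicate 2 (0.0726), and Pdk1 without DMSO replicate 2 (0.0576). Ldha and Pgk1, which encode glycolytic enzymes, had log2 changes of 0.01 and -0.23 and did not pass.

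Direct TGF-β target genes were lower in 5 of 6 cases, against 14.5% of all genes. None lay under the dim level, and of the 11999 genes left by the dim filter 3202 were lower. This list was chosen with earlier results of these data known, so the count is not a test. The part of either compound was not tested. The log2 changes were -1.89 for Pmepa1, -1.66 for Ccn2, -1.54 for Skil, -0.47 for Ltbp2 and -0.44 for Smad7, while Tgfbi had a log2 change of -0.13 (adjusted p = 0.32).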
